A study of Mus musculus with 4 samples.

Results

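Active enhancers are transcribed by RNA polymerase II in both directions from a short central region, and the position between the diverging transcripts is taken as the transcription center. A region can be given several centers when its transcripts pair in more than 1 way, or when neighbouring enhancers are merged. Of the 2282 intergenic enhancers listed for mouse liver, 274 had 2 or more centers, chosen only by the number of positions in the list of centers, and the other 2008 had 1 center. Among the 274, 204 enhancers had 2 centers, 51 had 3, 14 had 4, 4 had 5 and 1 had 9, which gave 646 centers in all. 1 of the 274 lay on the mitochondrial genome, between positions 10896 and 15774, and had no closest gene.

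The enhancers come from PRO-seq of nuclei from the livers of mice aged 14 days, in 4 libraries. PRO-seq (precision run-on sequencing) maps the 3' ends of RNA still held by engaged polymerase. The mice were C57BL/6, and all of them carried Alb-Cre, in which the albumin promoter drives Cre recombinase and so deletes floxed alleles in hepatocytes. The 2 WT libraries were Hdac3 +/+, and the 2 KO libraries carried a floxed Hdac3 allele with a null allele or a second floxed allele. Each library used 20000000 nuclei, pooled from several mice, so the spread between libraries is that between pools. The enhancers were called once, on the pooled reads of all libraries, and their levels per library were not analysed here. What is compared per library is the polymerase signal of the closest gene. It was counted near the promoter, where polymerase pauses after initiation, and over the gene body, where it elongates.

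Across the libraries, 16628518 to 26190040 reads fell in the listed promoter-proximal and gene body regions. The promoter-proximal share was 10.3% and 9.38% in WT1 and WT2, and 13.6% and 17.0% in KO1 and KO2. Hdac3 itself had 665 and 648 normalised gene body reads in WT and 609 and 582 in KO (log2 fold change -0.14, SE 0.13, limma adjusted p = 0.413). These reads span the whole gene body, so they do not check the deletion of the floxed segment. The summed gene body density of 5 hepatocyte markers was 20363 and 23045 reads per kb in WT and 8968 and 8823 in KO, and 4 of the 5 passed the test downwards. The 5 stellate cell markers all passed upwards, from 88.4 and 98.8 to 260 and 243 reads per kb. Of the 5 endothelial markers 4 passed upwards, from 694 and 709 to 1226 and 1132 reads per kb, and none of the 4 listed Kupffer cell markers passed. All 3 listed erythroid markers passed downwards, from 75.3 and 85.5 to 29.4 and 32.8 reads per kb. Of the cholangiocyte markers 1 passed downwards, and of the lymphocyte markers 1 passed each way. None of the listed markers was at 0 in all libraries. In bulk tissue, fewer cells of a type and less RNA per cell cannot be told apart, and the part of these shifts in the changes of closest genes was not tested.

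Of the 274 enhancers, 29 (10.6%, exact 95% interval 7.2 to 14.8) had a center inside a RefSeq start window, the 300 bases from 250 before to 50 after an annotated transcript start, against 90 of the 1-center enhancers (4.48%, 3.62 to 5.48). More centers give more chances, and per center the share was 30 of 646 (4.64%, 3.15 to 6.56). Among enhancers of 5 to 10 kb, a length range chosen after the data were seen, the shares of enhancers were 9.30% (4.10 to 17.5) and 6.47% (3.00 to 11.9). These windows give the sequence at the center itself. The 7 printed here are examples from enhancers whose closest genes are named here, picked after the data were seen, and all 7 starts are of predicted Gm transcripts. Others of the 32 windows hold starts of known genes, among them Pik3ca, Elf2, Klhl2, Numb and Bckdhb. For Pik3ca, Elf2 and Klhl2 the closest gene of the enhancer is that same gene. These members thus hold a center at an annotated start of their own closest gene, although their listed distances to it were 26577, 5991 and 46194 bp. Whether they act as enhancers or as promoters was not tested. They are from RefSeq GRCm38.p6 (mm10), written along the strand of the transcript, with the 21 bases around the center in capitals. The positions are chr2:167847793-167848092 (minus strand) for Gm32800 in the 9-center enhancer near Ptpn1, chr2:167777663-167777962 (minus) for Gm32287 near A530013C23Rik, chr10:99232825-99233124 (plus) and chr10:99460625-99460924 (minus) for Gm34777 and Gm35035 in the enhancers near Dusp6, chr11:5485630-5485929 (plus) for Gm11963 near Xbp1, chr8:126853199-126853498 (minus) for Gm31718 near Tomm20, and chr15:102017200-102017499 (minus) for Gm41404 near Krt8.
Gm32800: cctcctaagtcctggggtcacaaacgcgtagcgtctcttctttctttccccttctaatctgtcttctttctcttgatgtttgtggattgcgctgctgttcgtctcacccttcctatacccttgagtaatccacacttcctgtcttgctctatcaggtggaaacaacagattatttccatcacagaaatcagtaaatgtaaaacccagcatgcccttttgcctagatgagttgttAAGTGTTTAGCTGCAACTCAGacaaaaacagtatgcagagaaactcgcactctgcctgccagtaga
Gm32287: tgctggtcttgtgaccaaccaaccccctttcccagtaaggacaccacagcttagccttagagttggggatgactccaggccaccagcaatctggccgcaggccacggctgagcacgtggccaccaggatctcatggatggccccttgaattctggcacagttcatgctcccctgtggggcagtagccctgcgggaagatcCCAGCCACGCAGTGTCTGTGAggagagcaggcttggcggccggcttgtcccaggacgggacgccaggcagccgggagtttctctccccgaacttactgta
Gm34777: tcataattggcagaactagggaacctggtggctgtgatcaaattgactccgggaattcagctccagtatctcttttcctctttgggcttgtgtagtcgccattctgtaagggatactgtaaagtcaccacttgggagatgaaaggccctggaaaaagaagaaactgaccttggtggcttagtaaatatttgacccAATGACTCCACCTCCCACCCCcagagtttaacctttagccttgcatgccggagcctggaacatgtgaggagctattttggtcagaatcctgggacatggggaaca
Gm35035: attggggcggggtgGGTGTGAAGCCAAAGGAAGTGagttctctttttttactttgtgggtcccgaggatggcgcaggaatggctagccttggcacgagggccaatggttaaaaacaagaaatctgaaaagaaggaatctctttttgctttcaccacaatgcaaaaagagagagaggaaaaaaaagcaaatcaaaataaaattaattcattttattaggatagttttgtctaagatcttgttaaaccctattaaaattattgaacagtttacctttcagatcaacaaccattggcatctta
Gm11963: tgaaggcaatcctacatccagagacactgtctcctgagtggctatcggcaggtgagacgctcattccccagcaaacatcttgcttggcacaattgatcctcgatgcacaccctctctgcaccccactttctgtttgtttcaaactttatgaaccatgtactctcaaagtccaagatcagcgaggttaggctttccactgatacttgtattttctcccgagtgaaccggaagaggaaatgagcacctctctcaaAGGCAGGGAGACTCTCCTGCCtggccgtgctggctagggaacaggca
Gm31718: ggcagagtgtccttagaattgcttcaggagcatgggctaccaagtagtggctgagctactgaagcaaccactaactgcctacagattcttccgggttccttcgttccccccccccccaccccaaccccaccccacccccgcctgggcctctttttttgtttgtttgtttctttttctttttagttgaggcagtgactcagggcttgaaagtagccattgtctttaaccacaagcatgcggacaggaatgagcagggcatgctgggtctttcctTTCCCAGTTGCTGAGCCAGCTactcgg
Gm41404: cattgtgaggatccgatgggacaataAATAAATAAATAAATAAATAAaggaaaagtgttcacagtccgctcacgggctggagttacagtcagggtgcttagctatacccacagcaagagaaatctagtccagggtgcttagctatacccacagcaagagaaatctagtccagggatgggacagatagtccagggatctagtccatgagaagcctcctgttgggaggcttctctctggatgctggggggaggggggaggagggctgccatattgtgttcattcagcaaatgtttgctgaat

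The center lay 6 bases before the annotated start of Gm32800 and 45 bases before that of Gm34777. It lay 13 bases after the start of Gm11963 and 33 bases after that of Gm31718. For Gm32287, Gm35035 and Gm41404 it lay 40, 226 and 214 bases before the start. The GC content of these windows ran from 37.7% in Gm35035 to 61.3% in Gm32287. The nuclear receptor half-site AGGTCA, searched on both strands, was in 11 of the 32 start windows at centers of multi-center enhancers (34.4%), in 18 of 103 at 1-center enhancers (17.5%), and in 16.3% of all 32851 windows of the same length. Some of the 32 windows overlap or share a center, so they are not 32 separate cases. The AP-1 letters TGANTCA were in 4 of the 32 (12.5%), against 5.83% at 1-center enhancers and 7.81% of all windows. The forkhead letters TGTTTAC were in 2 of the 32 (6.25%), against 3.88% and 3.65%. These are part of a longer list of searched patterns, and the others did not all go this way. The E-box share was lower, at 6.25% against 11.7% and 7.15%. The HNF4 and HNF1 patterns were in 1 of the 32 each, above both other shares. The relaxed C/EBP and CpG shares lay between those at 1-center enhancers and of all windows. The strict C/EBP, DR1, RORE, D-box and CTCF core patterns were in 0 of the 32. A match is a description of letters, not of binding.

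Multi-center enhancers were long. Their median length was 7779 bp (quartiles 4697 and 14604, range 1202 to 75722), against 2083 bp for 1-center enhancers. The step to the next class was already wide, since enhancers with exactly 2 centers had a median of 6057 bp, those with 3 had 12138 bp and those with 4 or more had 17349 bp. Over 10 kb were 111 of the 274 (40.5%, 34.6 to 46.6) and 76 of the 2008 (3.78%, 2.99 to 4.71). Neighbouring centers were a median of 2690.5 bp apart over 372 gaps, and 14 gaps were under 500 bp. The outermost centers spanned a median of 3104 bp. A region with several centers has to hold the distance between them, so part of the length follows from the choice of members. The longest, of 75722 bp, lay near Phxr4 at chr9:13466209-13541931 with 3 centers. The shortest, of 1202 bp, lay 3299 bp from Gadd45g at chr13:51842174-51843376, and its 2 centers were 26 bp apart.

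**Figure D1:**
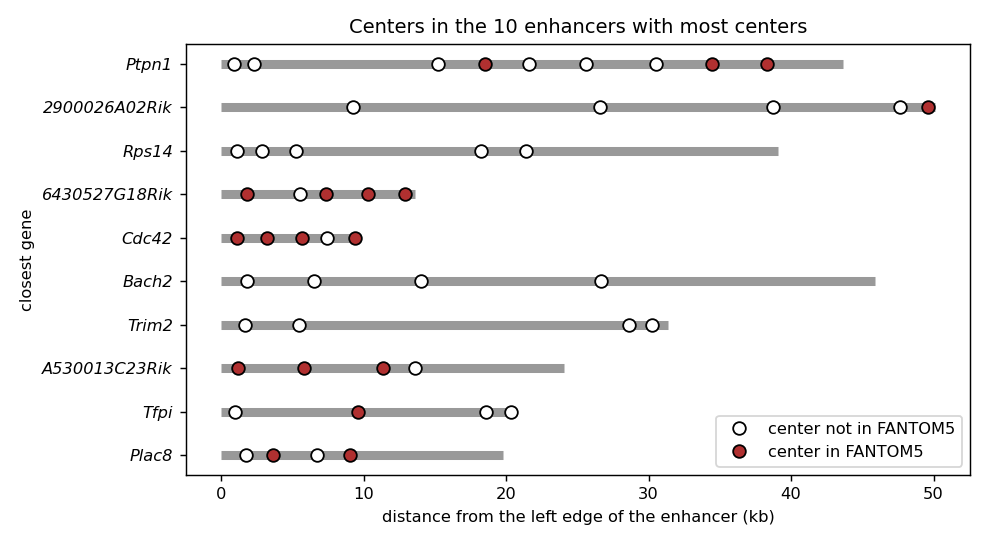
Centers along the 10 enhancers with most centers (the longer ones first among those with 4), drawn as grey bars from their left edge (x axis, distance in kb; y axis, closest gene), with filled circles for centers in FANTOM5 and open circles for the others. The Ptpn1 enhancer has 9 centers, 3 of them in FANTOM5, and none of the centers near Rps14, Bach2 or Trim2 is in FANTOM5.

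The enhancer with most centers, at chr2:167826232-167869905, was 43673 bp long and lay 62422 bp upstream of Ptpn1, a tyrosine phosphatase that dephosphorylates the insulin receptor. The gap to its nearest neighbour in the list was 1393 bp. An enhancer of 24079 bp with 4 centers, chr2:167764148-167788227, lay on the same chromosome near the non-coding gene A530013C23Rik, and 3 of its 4 centers were in FANTOM5. The 5-center enhancer of Cdc42 was compact: its centers spanned 8290 bp of a 9773 bp region at chr4:137364774-137374547, and 4 were in FANTOM5. The 5-center enhancer near 6430527G18Rik was the nearest of all to its closest gene, at 2275 bp, and also had 4 centers in FANTOM5. In contrast, the 4 centers near Bach2, a transcriptional repressor best known from lymphocytes, lay in a region of 45921 bp. The edge of that region was 134318 bp from the gene.

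FANTOM5 is an atlas of enhancers defined from capped RNA 5' ends. A center in FANTOM5 was found in 135 of the 274 multi-center enhancers (49.3%, exact 95% interval 43.2 to 55.4) and in 497 of the 1-center enhancers (24.8%, 22.9 to 26.7). These intervals cover counting error only. More centers give more chances of an overlap, and per center the shares were close, at 185 of 646 (28.6%, 25.2 to 32.3) against 24.8%. The share of enhancers was 42.2% with 2 centers, 66.7% with 3 and 78.9% with 4 or more, and the share of centers was 25%, 32.7% and 38.8%. The intervals per center overlapped between these classes. In 19 enhancers (6.93%) every center was in FANTOM5. Within the 5 to 10 kb range, 40 of 86 multi-center (46.5%, 35.7 to 57.6) and 27 of 139 1-center enhancers (19.4%, 13.2 to 27.0) had a FANTOM5 center. Per center, the shares in that range were 57 of 192 (29.7%, 23.3 to 36.7) against 19.4%, with intervals that overlap.

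**Figure D2:**
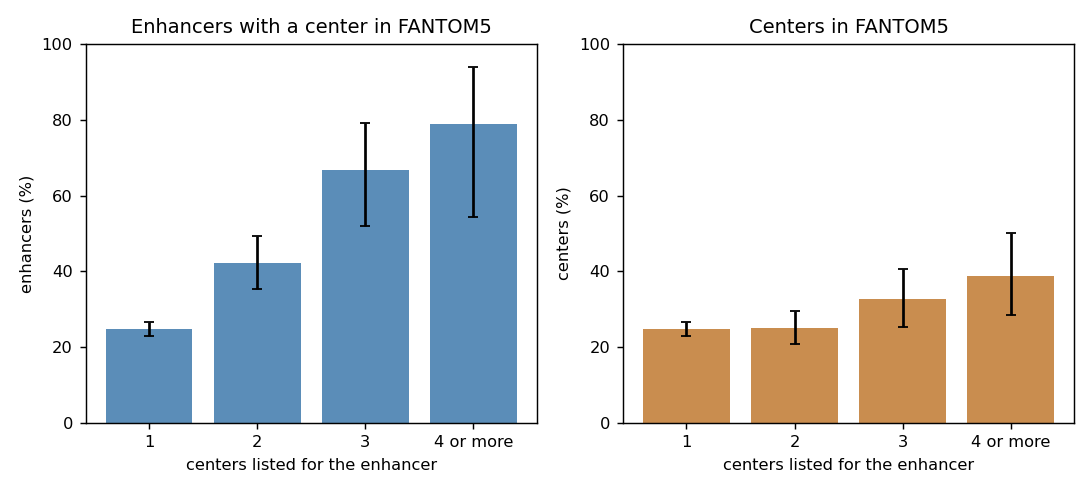
Share of enhancers with at least 1 center in FANTOM5 (left, percent) and share of single centers in FANTOM5 (right, percent) by the number of centers listed, with exact 95% binomial intervals as bars. The share of enhancers goes from 24.8% with 1 center to 78.9% with 4 or more, and the share of centers from 24.8% to 38.8%.

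The closest active gene lay a median of 42368 bp away, against 50492 bp for 1-center enhancers. The deposited distance runs from the enhancer edge, which favours long regions, and from the nearest center the medians were 48103 and 52465 bp. Within the 5 to 10 kb length range the order of the medians was the other way, at 57838.5 bp for multi-center and 36342 bp for 1-center enhancers, and 44.2% (33.5 to 55.3) against 61.2% (52.5 to 69.3) lay within 50 kb. Over 100 kb away were 55 of 273 (20.1%, 15.6 to 25.4), against 30.9% (28.9 to 33.0), and within 5 to 10 kb the shares were 22.1% and 23.7%. The farthest, near Sh3bgrl2, was at 375731 bp. All 78 position-matched enhancers within 20 kb were upstream of their gene, since transcripts within RefSeq genes or in a stretch past their ends were left out before enhancers were called, and beyond 20 kb 107 of 172 were upstream. Another listed enhancer lay under 10 kb away for 116 of the 274 (42.3%, 36.4 to 48.4), against 583 of the 1-center enhancers (29.0%, 27.1 to 31.1). Chromosome 8 held 31 of the 274, which was 25% of its 124 enhancers, and the share on the other autosomes ran from 5.65% on chromosome 7 to 16.8% on chromosome 5. 4 multi-center enhancers between 126803059 and 126877968 on that chromosome shared Tomm20, which encodes a mitochondrial import receptor, as their closest gene.

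Links to genes were also listed in 2 other ways. Within 50 kb, 150 of the 274 had at least 1 active gene, with 203 different genes in all. Chromatin contacts from the 4DGenome database gave a median of 21 genes per multi-center enhancer and 12 per 1-center enhancer, and within the 5 to 10 kb length range 19 and 16. The cells behind these contacts were Th1 cells for 256 of the 274 and embryonic stem cells (ESC) for 122, and no label named liver. The closest gene was among the contact genes for 176 of the 274 (64.2%, 58.2 to 69.9) and for 47.7% (45.5 to 49.9) of the 1-center enhancers. Within 5 to 10 kb these shares were 59.3% (48.2 to 69.8) and 55.4% (46.7 to 63.8), with intervals that overlap. A GENCODE long non-coding RNA overlapped 92 multi-center enhancers (33.6%, 28.0 to 39.5) and 399 1-center enhancers (19.9%, 18.1 to 21.7), and within 5 to 10 kb the shares were 31.4% and 23.0%.

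The 273 nuclear enhancers had 236 different closest genes, since 32 genes were closest to 2 or more of them. Inhbb, the beta B subunit of inhibins and activins, Cstad and Dhx40 were each closest to 3. Of the 236 genes, 136 were also closest to a 1-center enhancer, and 1143 genes were closest to 1-center enhancers only. The list was assigned to active genes, so all 236 passed the activity filter of a gene body density over 4 normalised reads per kb.

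The closest genes of multi-center enhancers were highly transcribed in every library. On the scale of log2 normalised gene body reads per kb plus 1, their median level was 6.35 and 6.39 in WT and 6.31 and 6.22 in KO. The closest genes of 1-center enhancers only had medians of 5.58 and 5.60 in WT and 5.66 and 5.57 in KO, and all 12705 active genes had 5.25 and 5.29 in WT and 5.23 and 5.14 in KO. The difference between the first 2 sets was 0.71 ± 0.07 (SD, n = 4 libraries of both genotypes). By library it was 0.76 and 0.79 in WT and 0.66 and 0.65 in KO. Of the 236 genes, 133 were in the highest of 4 equal classes of active genes by mean gene body level over the 4 libraries. The highest WT gene body densities were those of Alb (albumin, 4868 reads per kb), Errfi1 (3105), Tat (2852), Ass1 (1806) and Sepp1, which encodes selenoprotein P. The promoter-proximal level also differed, by 0.38 ± 0.07 (SD, n = 4), with 0.44 and 0.41 in WT and 0.38 and 0.29 in KO. However, among genes with no 1-center enhancer of their own this difference was -0.40.

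Gene bodies of these genes were lower in KO more often than higher. Of the 236, 49 fell (20.8%, 15.8 to 26.5) and 19 rose (8.05%, 4.92 to 12.3), with a limma adjusted p under 0.05 and a log2 fold change beyond 0.6. Over all 12705 active genes tested, 11.4% fell and 10.4% rose. With median-of-ratios scaling within the region, 45 fell and 19 rose, against backgrounds of 9.37% and 12%. Genes closest to 1-center enhancers only were split evenly, with 12.9% lower and 14.3% higher. The median log2 fold change of the 236 genes was -0.10, close to the -0.09 of all active genes, so the excess lay in the lower tail. Highly transcribed genes fell more often in general, at 16.8% of that highest level class over all active genes. In this class 31 of the 133 closest genes fell (23.3%, 16.4 to 31.4), and 18.7% of those of 1-center enhancers only.

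The falls were most frequent close by. Of the 45 genes with a multi-center enhancer within 10 kb, 15 fell (33.3%, 20.0 to 49.0) and 4 rose, while 30 of 241 genes (12.4%, 8.6 to 17.3) with a 1-center enhancer in that range fell. At 10 to 50 kb 18 of 96 fell, at 50 to 100 kb 10 of 59 and beyond 100 kb 6 of 36. The interval of the nearest class overlaps those of the other distances. By number of centers, 34 of 167 genes with at most 2 centers fell, as did 13 of 50 with 3 and 2 of 19 with 4 or more. The share with a FANTOM5 center (24 of 126) and without one (25 of 110) was similar, with intervals that overlap. Active genes within 50 kb that were not the closest fell in 13 of 62 cases and rose in 8.

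**Figure D3:**
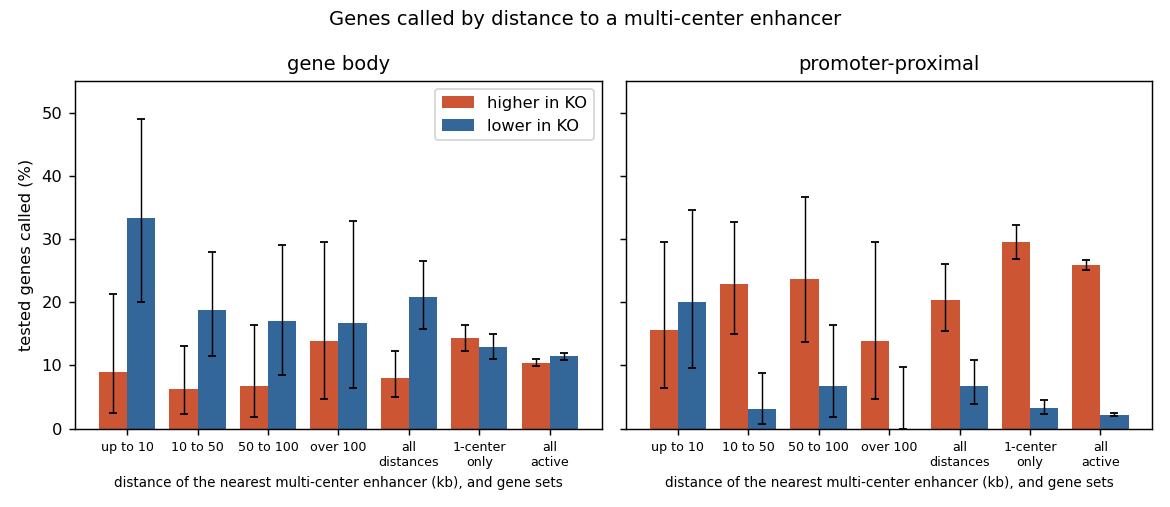
Percent of tested genes called higher (orange) or lower (blue) in KO in gene bodies (left) and promoter-proximal regions (right), by the distance of the nearest multi-center enhancer in kb, and for closest genes of 1-center enhancers only and all active genes, with exact 95% binomial intervals as bars. Gene body falls go from 33.3% within 10 kb to 16.7% beyond 100 kb, beside 11.4% of all active genes.

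Promoter-proximal signal was higher in KO over most active genes, with a median log2 fold change of 0.56. The closest genes of multi-center enhancers had a lower median of 0.35, and 178 of the 236 were above 0. Of them 48 rose (20.3%, 15.4 to 26.0) and 16 fell (6.78%, 3.92 to 10.8), against 25.8% and 2.2% of all active genes. With median-of-ratios scaling within the region, which sets the median of all genes near 0, 11 rose and 41 fell, against 4.99% and 7.41%, and the median of the 236 became -0.21. The direction of the median thus turned with the scaling, while it lay below that of all active genes in both. The median of each KO to WT pair of libraries was below that of all active genes, by the largest margin for KO1 over WT1 (0.06 against 0.34). Leaving out a library moved the number of rises widely, among the 236 and over all active genes alike. The median of the 236 then ran from 0.18 to 0.58.

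Calls in both regions went together for 25 genes. Gene body and promoter-proximal signal both fell for 13 and both rose for 12, while 36 genes fell in the gene body alone and 36 rose near the promoter alone. Over all active genes these shares were 1.94%, 7.06%, 9.23% and 18.5%, against 5.51%, 5.08%, 15.3% and 15.3% of the 236. With scaling within the region the counts were 33, 5, 12 and 6, against 4.79%, 3.47%, 4.56% and 1.5% of all active genes, so the split depended on the scaling. None of the 236 was called in opposite directions with either scaling, against 0.252% of all active genes with the deposited scaling and 0.0708% with scaling within the region.

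**Figure D4:**
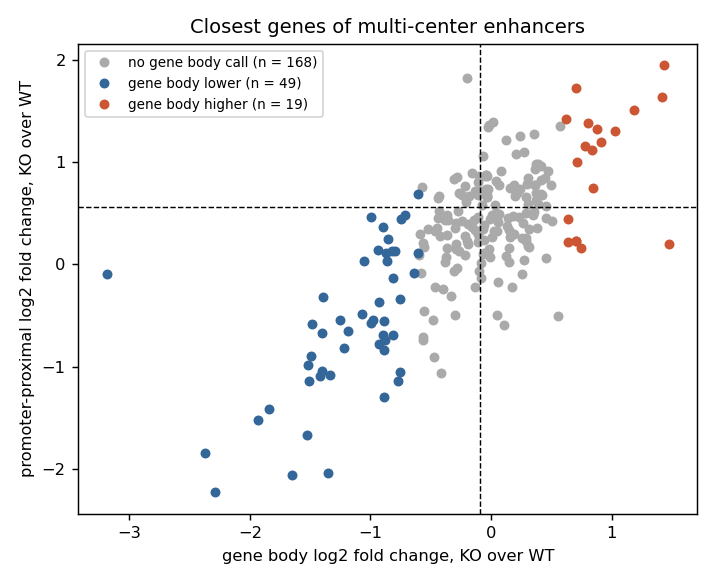
Gene body (x axis) and promoter-proximal (y axis) log2 fold change, KO over WT, of the 236 closest genes, with dashed lines at the medians of all active genes (-0.09 and 0.56) and colors for the gene body call. The 49 genes with a lower gene body lie mostly below the horizontal line, and Gadd45g stands at -3.19 and -0.10.

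Genes of amino acid breakdown and the urea cycle were the clearest group. Of 27 genes in that list, all active, 6 were closest genes of multi-center enhancers. All 6 fell in the gene body and 5 near the promoter, against 11.4% and 2.2% of all active genes. The median gene body log2 fold change of the 6 was -1.47, against -0.09 over all active genes. Calls of the other genes in the list are not given here. Ass1, argininosuccinate synthase of the urea cycle, had 84023 and 94440 normalised gene body reads in WT and 18224 and 16270 in KO. Its log2 fold change was -2.37 (SE 0.13, limma adjusted p = 4.9e-12), and its 3-center enhancer lay 7686 bp upstream at chr2:31445103-31462584. The 2 KO values of Ass1 were far below both WT values. Cps1, which carries out the first step of the cycle, had 139758 and 128681 reads in WT and 53978 and 47902 in KO (log2 fold change -1.40, SE 0.15). It was the group's exception near the promoter, at -0.67 with adjusted p = 0.0613. Arg1, arginase, which releases urea, had 11769 and 14225 in WT and 4681 and 4386 in KO.

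The other 3 break down aromatic amino acids. Tat, tyrosine aminotransferase, had 21219 and 26524 reads in WT and 8955 and 8771 in KO. Hpd, hydroxyphenylpyruvate dioxygenase, the next step of tyrosine breakdown, had 9390 and 8811 in WT and 3501 and 3629 in KO, and its enhancer at chr5:123190833-123206574 had 4 centers. Tdo2, which opens tryptophan breakdown, had 7996 and 4470 in WT and 1871 and 1931 in KO, so its WT libraries differed more from each other than its KO libraries did. In all 6 the KO values lay below both WT values, as they did in 42.8% of all active genes. All 6 enhancers lay upstream, between 4254 and 19751 bp from the gene, as did all 78 position-matched multi-center enhancers within 20 kb. The list was chosen with earlier results of these data known, so its direction is a description.

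Other metabolic closest genes fell too. Ppp1r3b, which targets a phosphatase to glycogen, had 4813 and 5153 gene body reads in WT and 2352 and 3043 in KO. Ppara, the nuclear receptor that drives fatty acid oxidation, had 26070 and 22004 in WT and 10974 and 11881 in KO. Of the 36 genes listed for lipid, sterol and bile acid metabolism, Ppara was the 1 with a multi-center enhancer closest. Alb, the hepatocyte marker and the gene whose promoter drives Cre here, had 67673 and 75584 in WT and 38678 and 38574 in KO (log2 fold change -0.89, SE 0.13, limma adjusted p = 1.0e-05). Of the 34 plasma protein genes listed, it was the 1 closest to such an enhancer. It was closest to 2 of them, and both centers of the nearer one, at chr5:90446209-90452238, were in FANTOM5. In all of these genes the KO values lay below both WT values, a separation seen in 42.8% of all active genes.

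**Figure D5:**
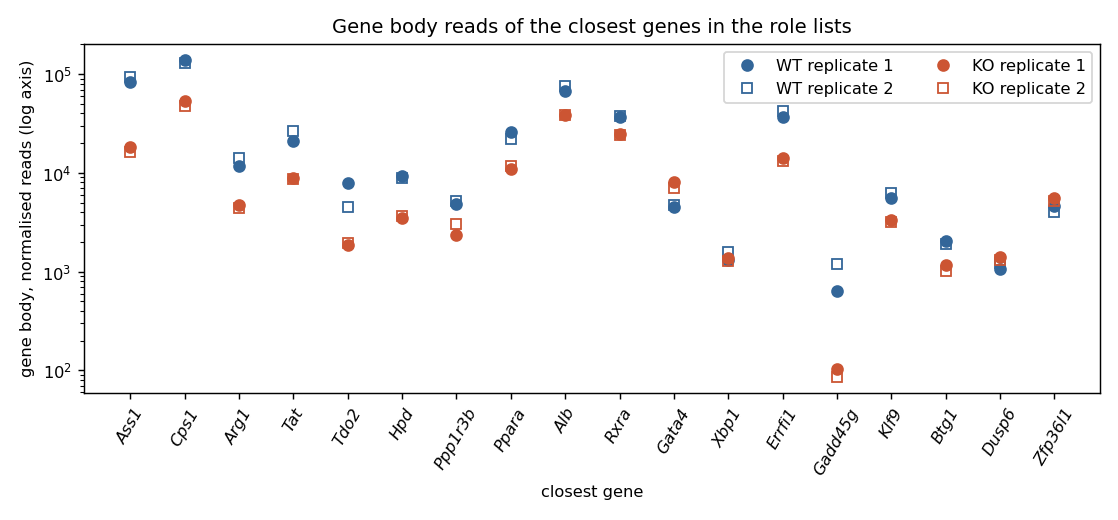
Normalised gene body reads (y axis, log scale) in each of the 4 libraries for the closest genes of multi-center enhancers that are in a functional list and named here (x axis). The 6 amino acid genes from Ass1 to Hpd have KO points below both of their WT points, and Gata4 is higher.

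Immediate-early and feedback genes, which respond quickly to hormones and stress, held 6 closest genes. Of these, 4 fell in the gene body, against 11.4% of all active genes, and the median log2 fold change of the 6 was -0.86. Gadd45g, a stress-induced growth arrest gene, had 631 and 1187 gene body reads in WT and 104 and 85.0 in KO (log2 fold change -3.19, SE 0.21, limma adjusted p = 7.9e-11). Its promoter-proximal reads were 1355 and 996 in WT and 987 and 1196 in KO, and the groups overlapped. Errfi1, a feedback inhibitor of the EGF receptor, fell in both regions, with 37024 and 42409 gene body reads in WT and 14267 and 13253 in KO. Klf9, a glucocorticoid-responsive factor, had 5613 and 6269 in WT and 3299 and 3220 in KO. Btg1, an anti-proliferative gene, had 2050 and 1916 in WT and 1177 and 1016 in KO. Dusp6, a phosphatase of ERK kinases, had 1067 and 1210 in WT and 1414 and 1304 in KO and was not called (limma adjusted p = 0.0929). Zfp36l1, which promotes mRNA decay, was not called either, at a log2 fold change of 0.32.

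Of 26 liver-enriched transcription factors, 3 were closest genes, and 1 of them was called up in the gene body, against 10.4% of all active genes. Rxra, the partner of many nuclear receptors, had 36473 and 37529 gene body reads in WT and 24529 and 24463 in KO, and its log2 fold change of -0.59 was just short of the fold threshold. Gata4 rose, from 4511 and 4740 to 8047 and 7071. Xbp1, a factor of the unfolded protein response, had 1323 and 1565 in WT and 1377 and 1292 in KO, with overlapping groups. None of the 19 genes in the clock list or the 28 in the drug and retinoid list was the closest gene of a multi-center enhancer.

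Outside the lists, the largest gene body falls by the naming rule, after Gadd45g and Ass1, were those of 3930402G23Rik, Hsd17b6 and Ugt2a3. Hsd17b6, a steroid dehydrogenase, had 2780 and 2547 reads in WT and 852 and 572 in KO, and Ugt2a3, a glucuronosyltransferase, had 251 and 261 in WT and 94.4 and 53.1 in KO. The non-coding 3930402G23Rik had 190 and 320 in WT and 54.1 and 45.5 in KO. The largest rises were those of Krt8, Fabp4, Prelp, Tnfsf10 and Gm15408. Krt8, an epithelial keratin, had 317 and 434 gene body reads in WT and 967 and 1107 in KO, while its promoter-proximal reads were 79.2 and 85 in WT and 90.2 and 98.7 in KO. Fabp4, a fatty acid binding protein, had 168 and 250 in WT and 571 and 541 in KO. Prelp, an extracellular matrix proteoglycan, had 357 and 432 in WT and 1051 and 1046 in KO. These rises stand beside the higher summed density of stellate and endothelial markers in KO given above, and the part of that shift in them was not tested.

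Near the promoter, Fabp4, Cbfa2t3, Tnfsf10, Sema6d and Cdk1 showed the largest rises by the rule. Cdk1, the kinase of mitotic entry, had 320 and 293 promoter-proximal reads in WT and 697 and 935 in KO (log2 fold change 1.40, SE 0.30, limma adjusted p = 9.0e-05), with gene body reads of 838 and 822 in WT and 836 and 847 in KO. Sema6d, a semaphorin, had 3644 and 3045 near the promoter in WT and 7869 and 10151 in KO. These 5 genes were also called up with scaling within the region. The largest falls were those of Tdo2, Hpd, Ass1, Errfi1 and Arg1, between -2.06 and -1.14 on the log2 scale.

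The closest genes of the 10 enhancers with most centers did not share a direction. Of the 14 enhancers with 4 centers, the 5 longest complete these 10. In the gene body Bach2 fell (log2 fold change -0.76), while Plac8 and Tfpi, an inhibitor of coagulation, rose (0.88 and 0.74). The other 7 closest genes were not called. Over all active genes, 11.4% fell and 10.4% rose, so these few calls are near the general share. Ptpn1 had 3783 and 4084 gene body reads in WT and 4689 and 4294 in KO (0.19, SE 0.11, limma adjusted p = 0.171), with the KO values above both WT values. Cdc42 had 4782 and 4762 in WT and 6679 and 5722 in KO, at 0.37 under the fold threshold. The other genes within 50 kb of these enhancers were Ndst1, Cd74 and 2310044G17Rik, and none was called in either region.

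The genes with 2 or more multi-center enhancers fell in 8 of 32 cases and rose in 1, against 11.4% and 10.4% of all active genes. Tomm20, with 4, had 1370 and 1453 gene body reads in WT and 1222 and 1122 in KO (limma adjusted p = 0.0721). Klf12, a transcriptional repressor with enhancers of 64337 and 33096 bp, had 15023 and 12664 in WT and 5151 and 4482 in KO. Aldh1l1, a folate enzyme, had 17664 and 16891 in WT and 7037 and 7509 in KO. Inhbb had 667 and 745 in WT and 465 and 396 in KO. Cstad was the 1 that rose, from 528 and 637 to 1093 and 944.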

How the data were processed

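PRO-seq was done on 2 WT and 2 KO liver libraries. Groups and replicate numbers came from the labels. Per the labels, the authors trimmed reads with cutadapt and aligned them to mm10 with Bowtie2 (versions are not given in the labels); per the study's methods, NRSA then counted reads and called, on pooled reads, intergenic transcripts outside gene neighbourhoods and merged nearby ones into enhancers. The deposited promoter-proximal and gene body values of WT2 are raw read counts, and those of the other libraries are normalised signal: for each of them the authors had scaled the counts with 1 library factor. The deposited densities give this signal per bp. Undoing the scaling gave whole reads (within 0.01 reads) for 100% of the 41640 values per library. No per-sample column was left without a sample.

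For the 12705 active genes (promoter-proximal reads above 0, mean gene body density over 4 per kb), limma 3.58.1 in R 4.3.3 was fitted to log2(normalised reads + 1), so fold changes of low genes are understated. A call needed a Benjamini-Hochberg adjusted p under 0.05 over all active genes and an absolute log2 fold change over 0.6. An exact permutation test of 2 against 2 libraries cannot go below p = 0.33 and was not used. The p-values rest on the spread between pools, which limma moderates for each gene toward a trend over all active genes (empirical Bayes). The printed SEs are moderated in the same way, so neither measures the spread of a gene's own values alone. edgeR 4.0.16 and DESeq2 1.42.0 on the recovered reads were alternatives. Simulated data for this comparison had 12705 genes, of which 200 were changed and the others had no shift. There limma found 94% of 2-fold and 96% of 4-fold gene body changes, and 10% and 79% near the promoter. The real promoter-proximal signal shifted over most active genes, so these shares do not give the recovery in the real data. Enhancer shares have exact (Clopper-Pearson) binomial intervals, which cover counting error only, and regions and genes are not replicates.

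Members and gene lists were chosen with earlier results of these data known. Genes were named by rule: closest genes of the 10 enhancers with most centers (ties: longer first), the 5 largest called rises and falls per region with a mean of at least 50 reads and no overlap between groups, genes with 2 or more multi-center enhancers, members of the functional lists, the 5 with the highest WT density, and genes within 50 kb of the first set. Gene and center annotation used GENCODE M21 and RefSeq GRCm38.p6. No genome sequence of the build was used, so sequences come from RefSeq start windows. A check of start windows of the closest genes themselves is void, since 157 of the 236 had one. 1 gene that the rule names is not reported here. Alternatives covered scaling, pseudocounts of 0.1 and 10, filters, the replicate block, left-out libraries and subsets of enhancers.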

Additional observations from a re-analysis of the deposited data

How the results depend on the processing

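Of 145 recomputed values, 112 stayed near the main value, 30 moved and 3 reversed. The gene body shares of 8.05% up and 20.8% down held across tools, scalings, pseudocounts and left-out libraries, which gave the widest range of these (6.78% to 8.90% up, 19.1% to 21.6% down), and were 5.80% and 21.7% with 3 or more centers, 7.09% and 23.4% for closest genes within 50 kb, and 11% and 22% for genes not shared with 1-center enhancers. They moved without the activity filter (1.27% and 7.63%, against 1.97% and 2.85% of all 20642 genes), and without a fold threshold (20.3% and 34.3%). The gene body median became -0.015 with either median-of-ratios scaling (gene bodies, or within the region) and -0.017 with TMM, and ran from -0.14 to -0.036 with 1 library left out. The promoter-proximal median, 0.35, reversed to -0.21 with both within-region scalings and ran from 0.18 to 0.58 with 1 library left out. Both within-region scalings gave 4.66% up and 17.4% down. Left-out libraries gave 0.847% to 25.8% up and 1.69% to 5.08% down. Without the activity filter limma called 0% up and 0% down near the promoter, also over all 20642 genes. In that limma fit 67 of the 236 had an unadjusted p under 0.05. With the filter, edgeR called 48 up and 15 down, against 25.6% and 2.09% of all active genes. DESeq2 called 48 and 11, against 22.0% and 1.42%.

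The deviations of same-numbered libraries correlated at 0.02 in gene bodies and -0.11 near the promoter. With 2 libraries per group, such a correlation cannot decide whether the replicate numbers pair the libraries. With the replicate block, promoter-proximal calls were 9.32% up and 4.66% down, against 13.9% and 1.39% of all active genes. Gene body calls were 19 up and 49 down, all of them called without it, against 10.4% and 11.4% of all active genes. Crossed numbers, chosen after seeing the data, called 68 genes up and 25 down near the promoter (10.6% down). Over all active genes they called 38.3% up and 3.14% down.

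The level difference to 1-center enhancers was 0.53 in gene bodies and -0.40 near the promoter, a reversal, among genes without a 1-center enhancer. It was 0.52 near the promoter with 3 or more centers, and ran from 0.69 to 0.74 and 0.36 to 0.41 with 1 library left out. The FANTOM5 share was 6.93% when all centers had to overlap, 28.8% for the first listed center, 28.6% per center and 70% with 3 or more centers, where the median length was 13449 bp. The cause of these moves was not tested. Motifs in windows around all centers were not run, for want of a genome sequence. Of simulated 2-fold changes near the promoter, with 200 genes changed, limma found 10%, edgeR 37% and DESeq2 27%.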
